A study of Mus musculus with 7 samples.

Results

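The 7 sarcomeric myosin heavy chain genes Myh1, Myh2, Myh3, Myh4, Myh7, Myh7b and Myh8 were followed in mouse plantaris muscle during regrowth after disuse. They were taken by gene symbol and are 7 of the 19938 genes with a named row on the array. Each had exactly 1 row, and no row annotated with several symbols held any of them. All 7 passed the filter on low values, which keeps a gene whose row reaches the array median on 1 or more arrays and left 12102 genes.

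The left plantaris, a calf muscle made mostly of fast fibres, came from male C57BL/6J mice aged 5 months. All animals had first spent 2 weeks in hind limb suspension, which unloads the hind limbs. Muscles were collected when suspension ended (d0, labelled the control) and after 1, 3, 5, 7, 10 and 14 days of reloading (d1 to d14). RNA of 6 animals was pooled for each time point and put on 1 Affymetrix Mouse Gene 1.0 ST array, so each of the 7 values of a gene is a mean over 6 muscles with no replicate beside it. Mice that were never suspended were not analysed here.

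A sarcomeric myosin heavy chain is the motor protein of the thick filament, and which gene a fibre uses sets how fast it contracts and how much energy it spends. Myh7 encodes the slow chain of type I fibres, Myh2 the fast oxidative IIa chain, Myh1 the fast IIx chain and Myh4 the fastest, the IIb chain. Myh3 and Myh8 encode the embryonic and perinatal chains, which are made in developing and regenerating fibres. Myh7b encodes a slow-type chain known from the heart, muscle spindles and extraocular muscle. Unloading of limb muscle is known to shift fibres from slow towards fast chains, and loading to shift them back.

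The values are the authors' normalized intensities on a linear scale, whose median over all rows lay between 128.1 and 131.8 on the 7 arrays, and whose highest row lay between 26965 and 28808. All 10 genes of a list of skeletal fibre markers passed the filter, with the muscle creatine kinase gene Ckm between 17752 and 19664. The d0 array had the lowest mean correlation with the other arrays across genes (Pearson r 0.986, against 0.987 to 0.993 for the rest), and the median gene lay 0.05 to 0.10 above d0 on the log2 scale on the later days. The courses of the chains and the main list medians are therefore also given against d14. As there is no replicate, a difference between 2 arrays is read against the robust SD (from the median absolute deviation) of the log2 difference of all 12102 genes between the same arrays, 0.09 to 0.19. The difference itself was not centred on that of the median gene. The share of all genes past this SD was not counted, so counts of pairs past it have no background. In 53.7% of all rows at least 2 arrays hold the very same value, and in 95.3% of these rows the most shared value is the row's median. This is so for Myh1 on d5 and d14 and for Myh7b at d1, d5 and d14, and equal values enter the robust SD as differences of 0. The fast chains and their neighbours are close in sequence, probe sequences were not used here, and how far probes of one chain bind RNA of another was not tested. Intensities of different rows do not rank the amounts of different RNAs, so each chain is compared with itself across days.

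Myh7, the slow chain, had the widest course of the 7 genes. Its intensity was 233.9 on d0, 388.9 on d1, 775.7 on d3, 313.9 on d5, 269.7 on d7, 434.9 on d10 and 294.6 on d14. It was thus high on d3, with a lower second maximum on d10, and lowest at d0. At d3 it was 3.32-fold above d0 (log2 ratio 1.73), which placed it at rank 7 of 12102 genes. At d10 it was 1.86-fold above d0 (0.89, rank 71), at d1 1.66-fold (0.73, rank 215), and at d7 1.15-fold (0.21, rank 3161). The level at d5 lay 1.31 below that at d3 on the log2 scale, the rank 3 lowest difference of all genes between these arrays, where the robust SD was 0.09. On d10 it was higher than on d7 by 0.69 (rank 67, robust SD 0.14), and on d14 lower than on d10 by 0.56. All 21 pairs of arrays differed by more than their robust SD, by the least between d10 and d1 (0.161 against 0.158) and between d5 and d14 (0.0915 against 0.0896). Against d14 in place of d0, Myh7 was higher by 1.40 on d3, 0.56 on d10 and 0.40 on d1 and lower by 0.33 on d0.

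**Figure D1:**
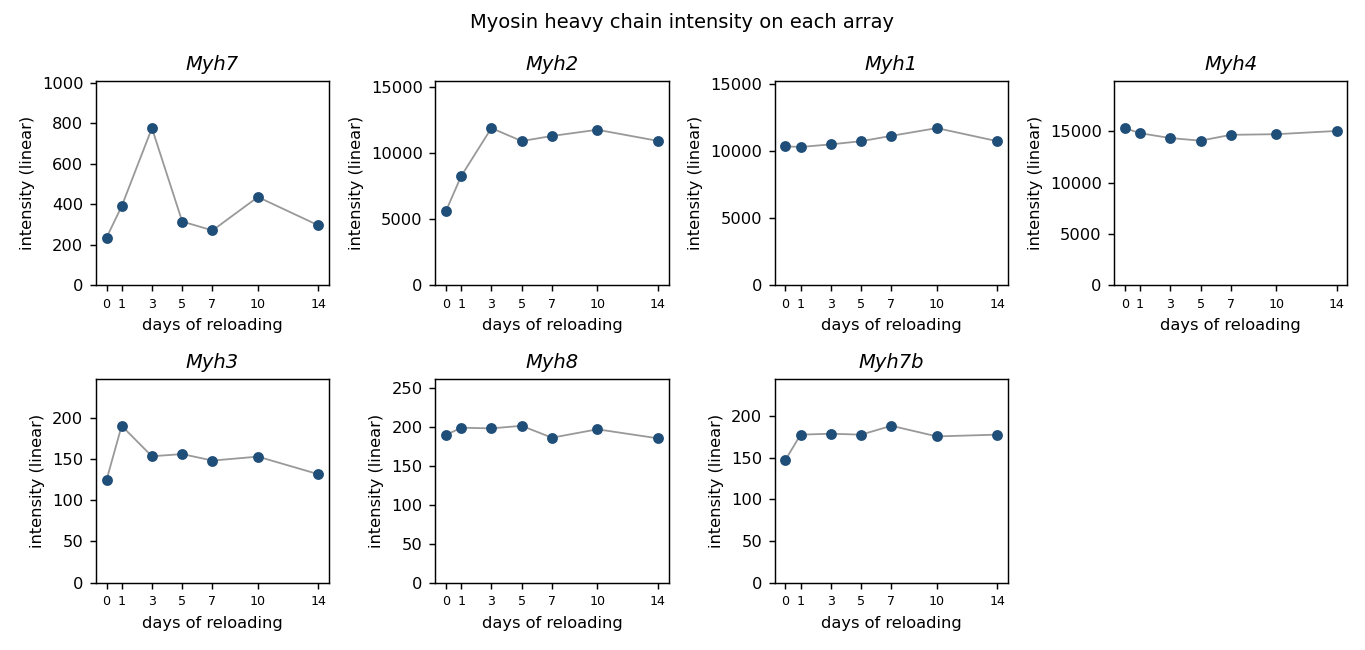
Linear intensity of each myosin heavy chain (vertical axis, starting at 0, own scale per panel) on the 7 arrays by days of reloading (horizontal axis), with 1 point per pooled array and a line to guide the eye. Myh7 is highest at d3 (775.7) and has a second maximum at d10 (434.9), Myh2 climbs between d0 (5598) and d3 (11865) and stays near that level, and Myh1 and Myh4 are nearly flat.

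Other contractile genes of slow fibres were higher with Myh7, though their courses divided. Of 12 slow fibre partners (light chains, troponins, calcium store genes and Z-disc or M-band proteins), 5 were at least 2-fold above d0 on d3 and 0 were 2-fold lower, with a median log2 ratio of 0.95, beside 0.413% of all genes 2-fold higher and a median of all genes of 0.07. The largest were the calcium store protein Casq2 (1.38), the troponin C gene Tnnc1 (1.27), the troponin I gene Tnni1 (1.25) and the regulatory light chain Myl2 (1.20). Between d3 and d5, 10 of the 12 were lower and 1 was higher, beside 6450 lower and 4341 higher of all 12102 genes. Tnnc1 was lower by 0.89 and Tnni1 by 0.63 in that step, whereas Casq2 was lower by 0.18, the essential light chain Myl3 by 0.08, and Myl2 was higher by 0.14. Between d7 and d10, 8 of the 12 were higher, beside 6828 of 12102 genes. Tnnc1 was higher by 0.73 in that step, Tnni1 by 0.57, Myl2 by 0.41 and Myl3 by 0.26, whereas Casq2 stood at 0.00, Mybpc1 at -0.05, Actn2 at -0.07 and Myom3 at -0.11. The 0.00 of Casq2 comes from 1 deposited value, 452.0, that d1, d7 and d10 share and that is the row's median. At d14 Myl2 and Myl3 were still above d0 by 0.94 and 0.96, while Tnnc1 stood at 0.06 and Tnni1 at -0.18, with Myh7 at 0.33. Against d14 the median of the 12 on d3 was 0.40, and 2 in place of 5 were past 2-fold, Tnni1 (1.43) and Tnnc1 (1.21). In RNA of whole muscle, a different number of slow fibres and a different amount of slow RNA per fibre cannot be told apart.

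**Figure D2:**
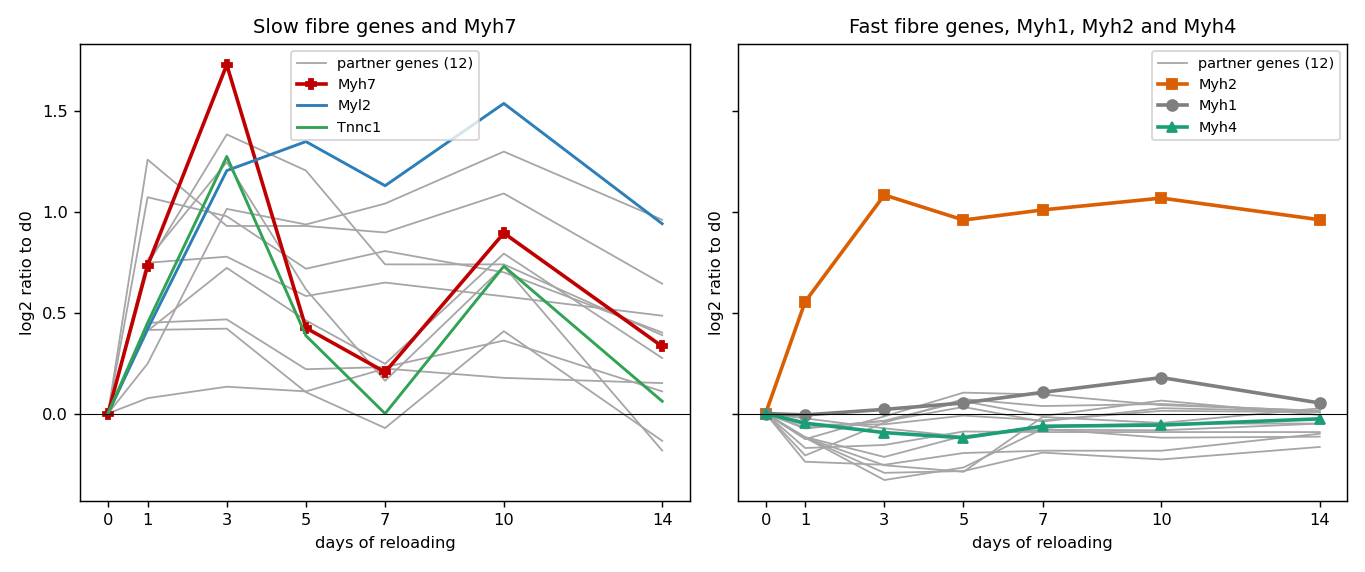
Log2 ratio to d0 (vertical axis) against days of reloading (horizontal axis). The left panel shows Myh7 with the 12 slow fibre genes in grey, of which Myl2 and Tnnc1 are coloured, and the right panel shows Myh1, Myh2 and Myh4 with the 12 fast fibre genes in grey. Myh7 and Tnnc1 share maxima at d3 and d10, while Myl2 stays high, and in the right panel Myh2 alone reaches a ratio of 1.08.

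Markers of other cells were read beside the d3 and d10 values of Myh7. Of 12 neutrophil markers, 5 were 2-fold above d0 on d3 and 11 on d10, beside 0.413% and 0.438% of all genes, with medians of 0.82 and 2.26 (against d14, 3 and 11 markers and medians of 0.67 and 2.08), and Ngp, a neutrophil granule gene, stood at 2.43 and 3.46. The summed intensity of the 12 was 1819 on d0, 3440 on d1, 4576 on d3, 2367 on d5, 3057 on d7, 9928 on d10 and 2170 on d14. Its order of d3 and d10 is the reverse of that of Myh7. Of 10 macrophage markers past the filter, all 10 were above d0 on d3 and on d10, beside 7925 and 8741 of all 12102 genes. Their medians on these days were 0.38 and 0.21 (0.45 and 0.33 against d14), but their median was highest on d1 (0.48). The macrophage gene Cd68 stood at 2.04 on d1, 1.71 on d3, 1.13 on d5 and 0.40 on d10. Fibroblast and tendon markers had medians of 0.41 on d3, 0.49 on d5 and 0.58 on d10, with 1, 2 and 3 of 12 past 2-fold. Against d14, 1 was past 2-fold higher on d3 and 0 on d10, and their median was -0.09 on d3 and 0.09 on d10, so that the direction on d3 turned. Of the 12, 8 were above d0 on d3 and 10 on d10, beside 7925 and 8741 of all 12102 genes. The matricellular gene Postn, the highest of the 12 on both days, stood at 2.45 on d3 and 1.72 on d10. Smooth muscle markers had medians of 0.04 and 0.07 on d3 and d10, beside 0.07 and 0.10 over all genes, with 0 of 8 past 2-fold. The summed intensity of the 10 skeletal fibre markers was 133460 on d3 and 140046 on d10, against 138502 on d0, and no marker of these lists had an intensity of 0. The part of these cells in the course of Myh7 was not tested.

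Myh2, the IIa chain, was the other member that reached 2-fold. Its intensity was 5598 on d0, 8223 on d1, 11865 on d3, 10885 on d5, 11270 on d7, 11739 on d10 and 10896 on d14. The value was lowest at d0, intermediate at d1, and high on all 5 days from d3 on. The log2 ratio to d0 was 0.55 on d1 (1.47-fold, rank 496), 1.08 on d3 (2.12-fold, rank 38), 0.96 on d5 (rank 26), 1.01 on d7 (rank 22), 1.07 on d10 (rank 49) and 0.96 on d14 (1.95-fold, rank 9). From d3 on the values lay within 0.12 of each other. Within those 5 days, d5 and d14 differed from d3 by -0.1243 and -0.1229, past the robust SD of 0.0896 of both pairs. The step from d5 down to d1 was 0.40 (robust SD 0.15) and that from d1 down to d0 was 0.55 (robust SD 0.18), and over all days 14 of 21 pairs differed by more than their robust SD. Against d14, Myh2 was lower by 0.41 on d1 as well as by 0.96 on d0, so its climb does not rest on the d0 array alone. On the later days it moved by at most 0.53, between d1 and d3.

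Myh1 and Myh4, the IIx and IIb chains, stayed close to d0 on all days. Myh1 had intensities of 10328 on d0, 10278 on d1, 10474 on d3, 10710 on d5, 11109 on d7, 11685 on d10 and 10710 on d14. Its largest log2 ratio to d0 was 0.18, at d10, and its smallest -0.01, at d1. Myh4 had 15314 on d0, 14817 on d1, 14341 on d3, 14087 on d5, 14658 on d7, 14719 on d10 and 15037 on d14. It was below d0 on all 6 later days, by 0.12 on d5 and by 0.03 on d14. This direction depended on the normalization, as quantile normalization put Myh4 at 0.04 on d1 and 0.00 on d7. Of the 21 pairs of arrays, 5 differed by more than their robust SD in Myh1, all 5 with d10 as the higher day. The largest of these was 0.19 between d10 and d1, with a robust SD of 0.16. In Myh4 this was 1 of the 21 pairs, d14 over d5 (0.094 against 0.090). The range over the 7 arrays was smaller than that of Myh1 in 17.1% of the 12102 genes and smaller than that of Myh4 in 5.80%. Both rows were among the brightest on the array, with 154 to 197 rows brighter than Myh1 and 87 to 102 brighter than Myh4. The d0 and d1 values of Myh2 lay below every value of Myh1. Its values on d5, d7 and d14 lay among those of Myh1, and on d3 and d10 above all of them. Whether the upper end of the scale narrows differences was not tested.

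**Figure D3:**
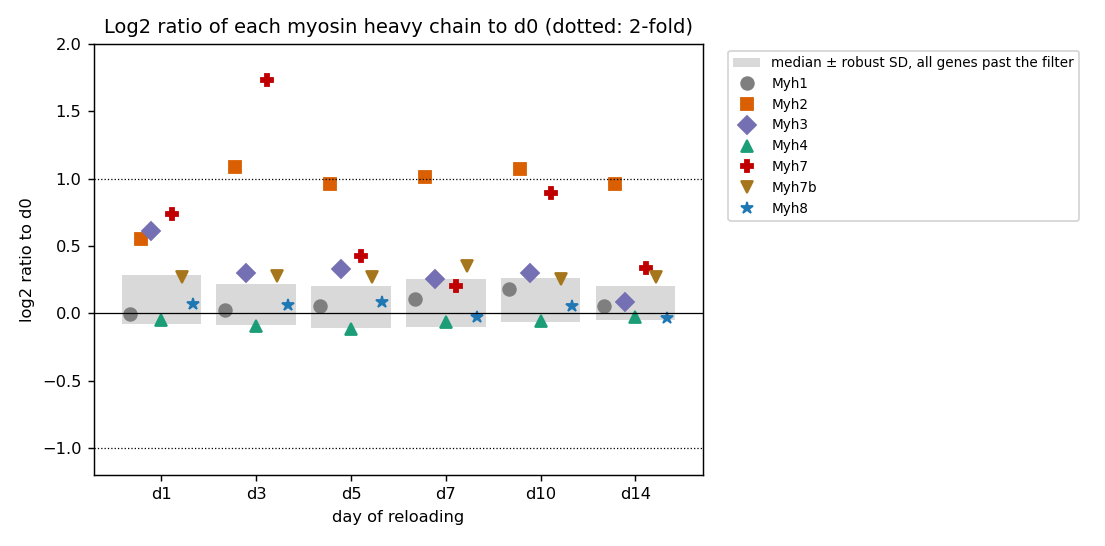
Log2 ratio to d0 (vertical axis) of the 7 myosin heavy chains (symbols) on each later day (horizontal axis), 1 pooled array per day. The grey box is the median ± the robust SD of all 12102 genes and the dotted lines mark 2-fold. Myh7 (1.73) and Myh2 (1.08) lie above the upper line at d3, and Myh4 lies below 0 on every day with the authors' normalization.

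Of the 7 chains, 2 were at least 2-fold above d0 on d3 (Myh7 and Myh2), where 0.413% of all genes were. At d7 and at d10 this was 1 chain each time (Myh2), beside 0.19% and 0.438% of genes. At d1, d5 and d14 it was 0, beside 0.653%, 0.182% and 0.0661%, with Myh2 just under the bound at d5 and d14. No chain was 2-fold lower on any day, where 0.372% of genes were on d1, 0.281% on d3, 0.314% on d5, 0.289% on d7, 0.355% on d10 and 0.322% on d14. The 6 comparisons share the d0 array, so they are not independent of each other. Against d14, Myh7 alone was past 2-fold on d3, beside 0.198% of genes in either direction, and no chain was on d7 (0.0248%) or d10 (0.248%). Against the mean of the 6 other arrays the same 1 chain was past it on d3 (0.0661%) and none on d7 (0.0248%) or d10 (0.19%). At 3-fold from d0, Myh7 remained on d3 (0.19% of genes), with no chain on d7 (0.124%) or d10 (0.331%). At 1.5-fold, 2 chains passed on d1 (Myh3 and Myh7, beside 4.47% of genes), 1 on d5 (Myh2, 2.16%), 2 on d10 (Myh2 and Myh7, 3.11%) and 1 on d14 (Myh2, 1.37%). The median log2 ratio of the 7 chains was 0.27 on d1, 0.28 on d3, 0.27 on d5, 0.21 on d7, 0.25 on d10 and 0.08 on d14, against 0.10, 0.07, 0.05, 0.08, 0.10 and 0.08 over all genes.

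The ratio of 2 chains on the same array does not depend on any single factor by which the arrays were scaled. The log2 ratio of Myh2 to Myh4 was above its d0 value by 0.60 on d1, 1.18 on d3, 1.08 on d5, 1.07 on d7, 1.13 on d10 and 0.99 on d14. That of Myh2 to Myh1 was above it by 0.56 on d1, and on the 5 days after that by between 0.89 and 1.06. The log2 ratio of Myh1 to Myh4 was above its d0 value on all days too, by 0.04 on d1 to 0.24 on d10. With quantile normalization Myh1 stood at -0.03 and Myh4 at 0.04 on d1, so this ratio was then below its d0 value. The log2 ratio of Myh7 to Myh2 stood at 0.65 relative to d0 on d3, at -0.80 on d7 and at -0.63 on d14. The slow and the IIa chain were thus both higher at d3, and after it the IIa chain kept the larger ratio to d0.

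**Figure D4:**
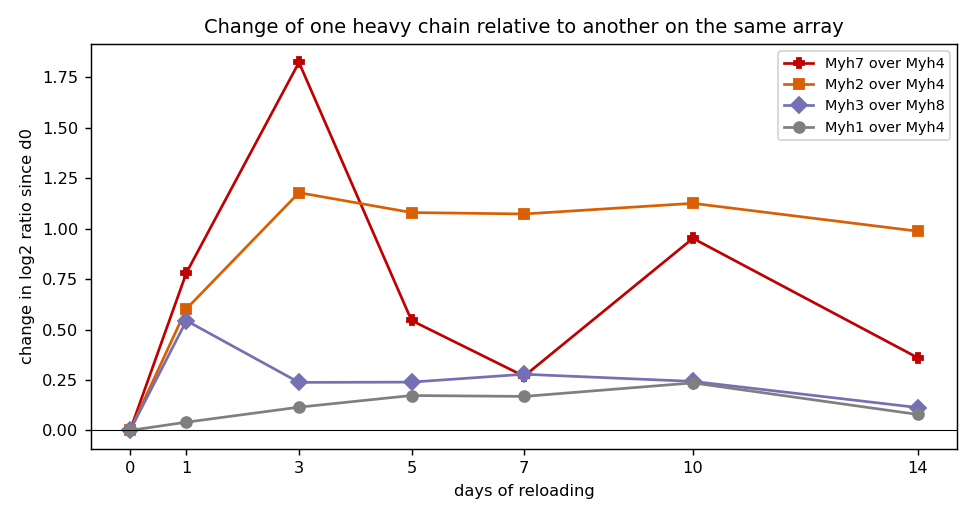
Change since d0 in the log2 ratio of one heavy chain to another on the same array (vertical axis) against days of reloading (horizontal axis), 1 pooled array per point. Myh2 over Myh4 reaches 1.18 on d3 and stays near 1, Myh7 over Myh4 has maxima at d3 (1.82) and d10 (0.95), and Myh1 over Myh4 reaches at most 0.24.

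Myh2, Myh1 and Myh4 lie next to each other in that order on mouse chromosome 11, between Myh3 and Myh8, while Myh7 lies on chromosome 14 and Myh7b on chromosome 2. The 250 bases upstream of the gene start are shown for Myh7 and Myh2, the chains that passed 2-fold, and for Myh4, a flat neighbour of Myh2 (RefSeq, GRCm38.p6, 5′ to 3′ on the gene's strand). Capitals mark matches on either strand. The E-box was searched as CANNTG. The MCAT motif was spelled CATTCC. The NFAT motif was spelled TGGAAA. The TATA motif was spelled TATAAA. The MEF3 motif, spelled TCAGGTTTC, matched none of the 7 windows, and the MEF2 and CArG motifs were searched by their usual consensus. The Myh7 window ends at the more upstream of 2 starts in the table.
Myh7, chr14:54994627-54994876, minus strand: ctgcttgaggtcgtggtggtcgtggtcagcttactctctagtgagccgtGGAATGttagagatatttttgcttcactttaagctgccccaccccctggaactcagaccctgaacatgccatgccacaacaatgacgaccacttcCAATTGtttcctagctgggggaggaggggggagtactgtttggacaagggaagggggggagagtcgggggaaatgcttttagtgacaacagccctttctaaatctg
Myh2, chr11:67170777-67171026, plus strand: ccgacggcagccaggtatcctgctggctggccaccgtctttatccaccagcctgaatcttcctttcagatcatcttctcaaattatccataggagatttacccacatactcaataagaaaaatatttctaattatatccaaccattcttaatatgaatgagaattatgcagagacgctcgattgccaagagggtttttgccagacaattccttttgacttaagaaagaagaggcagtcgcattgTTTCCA
Myh4, chr11:67237562-67237811, plus strand: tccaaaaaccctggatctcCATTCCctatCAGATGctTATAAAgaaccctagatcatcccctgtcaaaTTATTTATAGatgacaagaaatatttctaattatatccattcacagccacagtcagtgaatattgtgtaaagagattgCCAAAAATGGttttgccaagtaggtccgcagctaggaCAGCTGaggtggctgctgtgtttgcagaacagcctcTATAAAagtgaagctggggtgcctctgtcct
The Myh4 window held 2 E-box, 3 TATAAA, 1 MCAT, 1 MEF2 and 1 CArG match, with a TATAAA match overlapping the MEF2 match. The Myh2 window held 1 NFAT match and no other, and the Myh7 window 1 E-box and 1 MCAT match. Of 32851 such windows of all genes, 66.2% hold an E-box, 12.6% MCAT, 18.6% NFAT, 12.4% TATAAA, 2.92% MEF2, 1.47% CArG and 0.387% MEF3. A match is a string of letters and not evidence of a bound factor, and binding was not measured.

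The windows of Myh1, Myh2, Myh4 and Myh8 share runs of 14 to 22 bases pair by pair, whereas the longest run that Myh3, also on chromosome 11, shares with any of them is 11 bases. A run of 14 bases, ttctaattatatcc, stands in the windows of Myh1, Myh2, Myh4 and Myh8, and of the 32851 windows these 4 are the ones that hold it. A run of 22 bases is the longest that Myh1 and Myh8 share, and it is set here beside the closest stretch of Myh2 and Myh4, with the MEF2 match in capitals.
Myh1, chr11:67199886-67199907, plus strand: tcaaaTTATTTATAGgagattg
Myh8, chr11:67277020-67277041, plus strand: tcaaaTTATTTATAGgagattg
Myh4, chr11:67237625-67237646, plus strand: tcaaaTTATTTATAGatgacaa
Myh2, chr11:67170854-67170875, plus strand: tcaaattatccataggagattt
Myh4 matches the run at 17 of 22 bases and Myh2 at 19 of 22. The MEF2 match is present in Myh1, Myh8 and Myh4 and not in this stretch of Myh2. The stretch was chosen after the courses were seen, and what it does in this muscle was not measured.

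The developmental chains were dim, and neither reached 2-fold on any day. Myh3, the embryonic chain, had intensities of 124.5 on d0, 190.4 on d1, 153.4 on d3, 156.1 on d5, 148.2 on d7, 153.0 on d10 and 131.6 on d14. It was highest at d1, 1.53-fold above d0 (0.61, rank 371), and its d0 value lay under the median of that array, so that it passed the filter through the other 6. The step from d1 to the next level, d5, was 0.29 against a robust SD of 0.15. Against d14 it was higher by 0.53 on d1 and lower by 0.08 on d0. Myh8, the perinatal chain, lay between 185.5 (d14) and 201.6 (d5), a range of 0.12 on the log2 scale. Of its 21 pairs, 2 exceeded the robust SD, with d14 at -0.1201 relative to d5 and -0.0963 relative to d3 (robust SD 0.0896 for both). The log2 ratio of Myh3 to Myh8 was above d0 by 0.54 on d1 and by 0.11 to 0.28 afterwards.

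Genes of immature or repairing fibres were set beside these 2 chains. Of 13 such genes past the filter, 10 were above d0 on d1, beside 8583 of 12102 genes, none of them 2-fold, with a median of 0.14 (0.30 against d14), beside a median of 0.10 over all genes. The acetylcholine receptor subunit Chrna1 (0.75), the adhesion molecule Ncam1 (0.74), the myogenic factor Myog (0.65) and the fetal receptor subunit Chrng (0.62) led at d1, near Myh3 at 0.61. At d3 these 4 stood at -0.13, 0.10, 0.20 and 0.01.

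Myh7b, the second slow-type chain, had a much narrower course than Myh7. Its intensity was 147.1 on d0, 177.4 on d1, 178.5 on d3, 177.4 on d5, 188.0 on d7, 175.3 on d10 and 177.4 on d14. All 6 later values lay above d0, by 0.25 to 0.35, and within 0.10 of each other. Of its 21 pairs, 6 exceeded the robust SD, and all 6 were pairs with d0. These differences were not centred on the median gene, which itself lay 0.05 to 0.10 above d0. On d1 and d10 Myh7b lay within the median ± the robust SD of all genes. At d3 the log2 ratio of Myh7 to Myh7b was 1.45 above its d0 value. Against d14 Myh7b differed by at most 0.08 on the other reloaded days, and d0 was the array that stood apart. An intron of Myh7b holds the microRNA gene Mir499, whose row was dim, with 42.1 on d0 and 26.3 to 33.7 later, and did not pass the filter. Mir208a, in an intron of Myh6, lay between 25.3 and 32.5.

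Chains outside the 7 were read for contrast. Myh6, the cardiac alpha chain and the chromosome 14 neighbour of Myh7, lay between 114.1 (d0) and 139.4 (d7), and stood at 0.28 on d3, when Myh7 stood at 1.73. Myh13, the extraocular chain, lay between 87.7 and 115.3 and did not pass the filter. Of the 5 other class II chains past the filter, 1 was past 2-fold, Myh10 on d1 (1.09), beside 0.653% of all genes 2-fold higher that day. At d3 this nonmuscle chain stood at 0.74, the nonmuscle chain Myh9 at 0.46 and the smooth muscle chain Myh11 at 0.33. The median of the 5 was 0.33, beside 0.07 over all genes.

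Light chains bind the neck of the heavy chain. Of 15 light chain and light chain kinase genes past the filter, 3 were 2-fold above d0 on d3 (Myl6b at 1.51, Myl2 and Myl3), beside 0.413% of all genes, and 2 on d5, beside 0.182%. Against d14, Myl6b alone of these 3 was past 2-fold on d3 (1.38), and from d0 0 were 2-fold lower on any day. The median of the 15 was 0.10 on d5 and 0.00 on d3 (0.09 and 0.05 against d14). Mylk2, the kinase of fast fibre light chains, was among the lowest, at -0.64 on d3 and 0.11 on d14. Fast fibre partners, 12 genes, had medians between -0.12 (d1) and -0.03 (d14) with 0 past 2-fold. All 12 were below d0 on d1 and at d3, whereas 8583 and 7925 of all 12102 genes were above it. The median over all genes was 0.10 on d1 and 0.07 on d3. The largest differences at d1 were those of the troponin Tnnc2 (-0.24), the calcium store gene Casq1 (-0.21), parvalbumin Pvalb (-0.17) and the light chain Mylpf (-0.13). Against d14 their median at d1 was -0.07. The ratios of these 12 were not computed with quantile normalization, which moved that of the bright Myh4 row on d1 from -0.05 to 0.04.

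Genes for folding myosin and building the thick filament had their highest median on d1, when Myh7 and Myh2 were below their d3 levels. The median over all genes was also highest on d1, at 0.10. Of 18 past the filter, 3 were 2-fold above d0 on d1, beside 0.653% of all genes, with a median of 0.14 (1 gene and a median of 0.04 against d14): the chaperone gene Hsp90aa1 (1.55), the small heat shock gene Hspb1 (1.33) and the M-band gene Myom3 (1.07). The methyltransferase gene Smyd2, which acts on this chaperone, stood at -0.62. At d3, 1 of the 18 was past 2-fold (Hspb1 at 1.05). Regulators known to direct slow or fast myosin genes were read next. Of 38 past the filter, 1 was past 2-fold at d1, beside 0.653% of all genes 2-fold higher. It was Rcan1, a calcineurin target and inhibitor (1.62), and on the other days 0 were past 2-fold. The d1 median of the 38 was 0.11 (0.07 against d14), near the 0.10 over all genes. Purb, a repressor of slow myosin genes, stood at 0.59 on d1, the TEAD partner Vgll2 at 0.58 and the deacetylase Hdac4 at 0.55. Rcan1 stood at 0.94 on d3 and 0.54 on d14, and Vgll2 at 0.59 on d14.

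Genes of the most like course were found for the 3 chains with a range of at least 0.5, by Pearson r over the 7 arrays among 1874 other genes of at least that range. For Myh7 they were Tnnc1 (r 0.98), Cdca3 (0.95), Tnc (0.94), C4b (0.92) and Prcp (0.92). At d3 they stood at 1.27, 0.73, 1.11, 0.98 and 0.63. For Myh2 they were Slc47a1, Plgrkt, Sparc, Ramp2 and St3gal5 (r 0.97 each), with log2 ratios to d0 on d14 of 0.72, 0.38, 0.55, 0.53 and 0.44, beside 0.96 for Myh2. For Myh3 they were Gusb, Wdr46, Capg, Hspa1a and Tubb2a (r 0.98 each), with ratios at d1 of 0.77, 0.65, 0.87, 2.30 and 0.67. These values of r describe 7 arrays only, among which d0 and d1 stand apart.

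A straight trend on log2(day + 1) was fitted with limma over the 7 arrays for all 12102 genes. None of the 7 chains passed a limma p of 0.05 after Benjamini-Hochberg adjustment, nor did any other gene (0%), beside 1288 genes (10.6%) at an unadjusted p of 0.05. Myh2 had the largest slope of the chains, 0.25 ± 0.05 (SE) per doubling of day + 1, with a limma p of 0.00207 and an adjusted p of 0.294, at rank 85 by p. It was also the 1 chain past an unadjusted limma p of 0.05, and 9.19% of all genes had such a p with a positive slope. On a linear day scale no chain had one (Myh2 limma p 0.05458). Myh7b had one too with quantile normalization, with equal array medians or without d1, and Myh1 had one without d14. Myh1 (slope 0.03, limma adjusted p 0.498) and Myh7b (0.06, 0.476) came next, and Myh7, whose course has maxima at d3 and d10, had a slope of 0.04 ± 0.15 (limma adjusted p 0.959). Without the d0 array the slope of Myh2 was 0.13 (limma adjusted p 0.403), and over all genes 19 rose and 24 fell past the adjusted p, none of them a chain. A straight trend does not describe a course with an early maximum, so these p-values say little about Myh7 and Myh3.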

How the data were processed

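The authors deposited 1 linear intensity for each probe set and array, already normalized, as the array medians show. Per the submitters' processing notes, Partek was used. How probes were background-corrected, summarized and normalized, and on which build, is not stated in those notes or labels. Scanner files, and so detection calls, were not used here. Log2 values were formed with no added constant (pseudocount 0). Of 35556 rows, 21789 had 1 gene symbol in the platform annotation, and the Entrez IDs of all 7 chains matched RefSeq under the same symbol. With 1 pooled array per time point there are no replicates, the number of arrays limits the precision, and day-to-day ratios carry no test.

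The trend used limma 3.58.1 in R 4.3.3 (lmFit, eBayes with an intensity trend), two-sided, adjusted over all genes, and was tested on simulated data. Its residual is the spread of pools about the line. Python 3.11.15, numpy 2.4.6, pandas 2.3.3 and matplotlib 3.10.9 did the rest. Named were all 7 chains, up to 4 genes of each list with the largest ratio (on the day of the most extreme list median), Myh6, Myh11, Myh13, and the 5 genes of most like course per chain. From the candidates for like course, small RNAs, antigen receptor segments, smell, taste and pheromone receptors, clones and predicted genes were left out. Myl3, Myom3, Mybpc1 and Actn2 among the slow partners and Actc1 among the immature fibre genes were chosen after the data were seen. So were shared promoter runs, counts over array pairs, list counts against d14 and the count of equal values. The chains and lists were chosen with earlier results of these data known. Alternatives changed the filter, normalization, pseudocount, row rule, reference, fold threshold, time scale and arrays.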

Additional observations from a re-analysis of the deposited data

How the results depend on the processing

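The count of chains at least 2-fold from d0 was 2 on d3, 1 on d7 and 1 on d10. It was 1, 0 and 0 on those days with d14 as the reference, with each array set against the average of the remaining 6, or with a 3-fold threshold. At 1.5-fold it was 2 on d1, 1 on d5, 2 on d10 and 1 on d14. With equal array medians it was 0 on d7, where Myh2 had passed by 0.01. Quantile normalization, both other filters, both pseudocounts and the mean over rows gave the same counts. No chain passed the limma adjusted p of 0.05 under any of 16 alternatives, 7 of them leave-one-out fits (0 each time), and those fits gave Myh2 slopes of 0.1263 to 0.2999. The slope of Myh7 (0.0395) was -0.0106 on linear days and -0.0072 on ranks, and -0.2151 to 0.1176 with 1 array left out, lowest without d0. That of Myh4 was 0.0001 on linear days and -0.0197 to 0.009 with 1 array left out, positive without d0. Leaving out 1 array gave -0.148 to 0.0426 for Myh3, positive without d1 or d14, and -0.0308 to 0.0039 for Myh8, positive without d14. Without d0, Myh3 in place of Myh2 had an unadjusted limma p under 0.05. Against d14 the d3 medians were 0.40 for slow fibre partners and 0.15 for the other heavy chains. Causes were not tested. No paired analysis was possible because each time point is 1 pooled array. With 7 pools and no replicate, small differences between days cannot be resolved.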
